A study of Homo sapiens with 24 samples.

Results

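Messenger RNA levels of 10 genes of drug export and platinum uptake were examined in KYSE450, an established human cell line from a squamous cell carcinoma of the oesophagus (ESCC). They were chosen by symbol from the 61251 genes of the deposited table: the exporters ABCC1, ABCC2, ABCC3, ABCC4, ABCC5 and ABCG2, the anion channel subunits LRRC8A and LRRC8D, and TMEM205 and ATP11B. RNA was sequenced in 24 libraries, 6 each of the parental line, the parental line's drug tolerant persister (DTP) cells, a chemoresistant line titled KYSE450DDP, and that line's DTP cells. All were labelled genotype WT and "No treatment" and grew in RPMI-1640 with 10% FBS. The labels name no drug, dose or exposure time, and do not say whether the resistant line was a clone, or whether the libraries of a group were separate cultures, so the p-values measure the spread between these libraries, which may be technical.

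The MRP family (ABCC1 to ABCC5) uses ATP to pump organic anions, among them glutathione conjugates, out of the cell. Platinum drugs bind glutathione inside cells, and such conjugates can leave through MRP exporters. LRRC8 proteins form volume-regulated anion channels, in which LRRC8A is required and partners such as LRRC8D set what passes. Channels with LRRC8D also let cisplatin in. TMEM205, a membrane protein, and ATP11B, a P4-type ATPase, have both been described in cisplatin-resistant cells. Only mRNA was measured here, not protein or transport.

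Levels are given in FPKM, reads per kilobase of gene scaled to the reads of the library, as deposited. Libraries held 14947379 to 37989445 reads. Changes are log2 fold changes on log2(FPKM + 1), which understates the change of genes near or under 1 FPKM, and a gene is said to have risen or fallen where limma's p-value, adjusted over the 13729 genes tested, was under 0.05. Of the 10 genes, 9 reached a mean of 1 FPKM in some group and were tested that way. ABCG2 did not, and was compared with exact permutation tests. Of the squamous epithelium markers, all 12, KRT5 and TP63 among them, passed the filter, with sums of 3034 to 6592 FPKM per library, the lowest in parental DTP cells. Of the 5 leukocyte markers, only the T cell gene CD3E was at 0 throughout, and 1 passed the filter. The leukocyte list summed to at most 2.61 FPKM in any library. The endothelium list summed to 0.0945 to 0.202 FPKM in parental, 0.136 to 0.215 in parental DTP, 0.888 to 1.14 in chemoresistant and 0.340 to 0.568 in chemoresistant DTP libraries.

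Some libraries stood apart. Parental DTP libraries 5 and 6 differed from libraries 1 to 4, and chemoresistant DTP library 2 from the other 5. Traces of other tissues' genes also differed between libraries. COL1A2, a fibroblast collagen, was at 0.465 to 2.70 FPKM in 16 libraries (parental 1 to 6, parental DTP 1 to 4, chemoresistant 4 to 6, chemoresistant DTP 1 to 3) and at 0.00906 to 0.0495 in the other 8. ALB, the hepatocyte albumin gene, was at up to 0.818 FPKM in those 16 and at 0.0133 to 14.0 in the 8, and LYZ, a myeloid gene, at up to 1.73 and at 0.597 to 2.53. These ranges overlapped, and ALB was at only 0.0258 and 0.0390 in parental DTP libraries 5 and 6. APOA1, also of the hepatocyte list, was higher in chemoresistant libraries 4 to 6 (1.80 to 2.46 FPKM) than in 1 to 3 (0.0894 to 0.383). It was at 6.52 and 2.34 in chemoresistant DTP libraries 5 and 6. The summed level of the fibroblast list was 2.76 to 7.38 FPKM in parental, 1.42 to 5.78 in parental DTP, 4.37 to 19.2 in chemoresistant and 2.70 to 14.2 in chemoresistant DTP libraries. The labels name no batch. The hepatocyte list, 2 of whose 4 genes passed the filter, summed to 0 to 0.0843 FPKM in parental, 0.0240 to 0.0858 in parental DTP, 3.20 to 8.31 in chemoresistant and 0.0891 to 25.5 in chemoresistant DTP libraries. The list of 5 nuclear-retained RNAs, a sign of RNA quality, summed to 27.5 to 46.3 FPKM in parental, 57.4 to 68.8 in parental DTP, 38.6 to 62.7 in chemoresistant and 47.7 to 67.8 in chemoresistant DTP libraries.

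The upstream sequence of ABCC2, ABCC4 and LRRC8D is shown first, from RefSeq (GRCh38.p14), whose table held promoters of 6 of the 10 genes. LRRC8A, which fell more than ABCC4 in the resistant line, is not shown. ABCC2, chr10:99782390-99782639 on the plus strand, is the exporter with the largest rise. ABCC4, chr13:95301476-95301701 on the minus strand, is the MRP exporter that fell in the resistant line. LRRC8D, chr1:89821689-89821920 on the plus strand, lies before the downstream of its annotated starts and belongs to the channel subunit that rose. Each run is 5′ to 3′, leaves out annotated exons, and has matches to 4 short motifs in capitals.
ABCC2: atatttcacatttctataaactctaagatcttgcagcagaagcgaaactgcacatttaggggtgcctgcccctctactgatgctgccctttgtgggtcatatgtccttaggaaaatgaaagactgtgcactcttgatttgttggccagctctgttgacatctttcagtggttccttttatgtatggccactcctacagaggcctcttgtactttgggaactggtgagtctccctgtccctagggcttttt
ABCC4: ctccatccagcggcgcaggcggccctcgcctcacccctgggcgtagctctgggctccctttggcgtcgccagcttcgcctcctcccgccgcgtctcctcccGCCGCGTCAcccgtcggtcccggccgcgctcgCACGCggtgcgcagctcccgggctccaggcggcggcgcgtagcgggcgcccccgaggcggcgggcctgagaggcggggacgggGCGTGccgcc
LRRC8D: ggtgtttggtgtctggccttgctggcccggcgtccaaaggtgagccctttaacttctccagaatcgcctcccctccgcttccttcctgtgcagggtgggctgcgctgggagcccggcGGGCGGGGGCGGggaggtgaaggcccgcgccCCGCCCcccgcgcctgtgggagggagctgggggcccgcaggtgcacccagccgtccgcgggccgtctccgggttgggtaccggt
The motifs, searched on both strands of the 250 bases before each start, were TGACNNNGC (the core of the antioxidant response element), GCGTG (the core bound by AHR with ARNT), GGGCGG (GC box) and CCAAT. ABCC2's window held none of the 4 and had a GC content of 45.6%. ABCC4's window, at 80.4% GC, held 1 match to TGACNNNGC and 2 to GCGTG. This LRRC8D window, at 70.8% GC, held 3 GC boxes. Over 35116 promoters of that length, TGACNNNGC was found in 10.9%, GCGTG in 32.2%, GGGCGG in 42.6% and CCAAT in 32.0%. These are matches of letters only, and the missing ones say nothing of the factors.

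In the resistant line outside the persister state, 7 of the 9 tested genes were higher than in parental cells, and 2 were lower. Over all tested genes 77.5% were called in this comparison, 48.2% higher and 29.4% lower. The rises were ABCC1, ABCC2, ABCC3, ABCC5, LRRC8D, TMEM205 and ATP11B. The falls were ABCC4 and LRRC8A. The median log2 fold change of the 9 was 0.88, against 0.14 for all tested genes, and relative log expression scaling brings the latter to 0.00. For all 9 the single libraries of the groups did not overlap, as was true of 61.8% of all genes tested.

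ABCC2 (chr10:99782640-99852594, GRCh38), the MRP of the bile-facing membrane of hepatocytes, differed most. Its levels were 0.123, 0.191 and 0.221 FPKM (lowest, median, highest of 6) in parental libraries, from 23 to 50 reads each. In chemoresistant libraries they were 7.65, 8.37 and 9.09 FPKM, from 1223 to 1808 reads each. Every resistant library was thus far above every parental one. The hepatocyte list's sum was also higher in these resistant libraries, as given above, and its part in ABCC2's level was not tested. The ABCC2 means, 0.179 ± 0.0416 and 8.39 ± 0.506 FPKM (SD, n = 6), stood in a ratio of 46.9, and the log2 fold change was 2.99 (SE 0.08, limma adjusted p = 4.41e-20), or 5.50 with a pseudocount of 0.01 in place of 1.

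ABCC3 (chr17:50634777-50692252), a basolateral MRP that carries glucuronide conjugates, ran at 0.988, 1.26 and 1.44 FPKM in parental libraries and at 3.84, 4.40 and 5.11 in chemoresistant ones. It rose by 1.28 (SE 0.09, limma adjusted p = 1.36e-12), with a ratio of means of 3.58. ABCC1 (chr16:15949577-16143074), the most abundant exporter of the list per length, was at 30.4, 33.8 and 35.7 FPKM in parental libraries and at 63.2, 66.3 and 69.3 in chemoresistant ones. These groups stood 1.97-fold apart (log2 fold change 0.96, SE 0.08, limma adjusted p = 2.59e-10). ABCC5 (chr3:183919934-184018015), which carries cyclic nucleotides and folates, was at 7.76, 7.99 and 9.08 FPKM against 12.1, 12.8 and 13.8, a rise of 0.60 (SE 0.08, limma adjusted p = 1.65e-07).

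ABCC4 (chr13:95019829-95301475), an exporter of cyclic nucleotides and prostaglandins, went the other way. It was at 3.75, 4.13 and 4.39 FPKM in parental libraries and at 2.86, 3.21 and 3.62 in chemoresistant ones. All resistant libraries lay under all parental ones, with a log2 fold change of -0.28 (SE 0.06, limma adjusted p = 0.000123). It was the lone MRP of the 5 to fall here.

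The uptake genes split. LRRC8A (chr9:128882112-128918039), the obligatory channel subunit, was at 54.2, 71.8 and 80.5 FPKM in parental libraries, of which libraries 5 and 6 were low (54.2 and 58.6 FPKM), and at 33.3, 36.7 and 44.0 in chemoresistant ones. It fell by 0.84 on the log2 scale (SE 0.10, limma adjusted p = 4.42e-08), to 0.548 of the parental mean. LRRC8D (chr1:89821014-89936611), the subunit known for platinum uptake, was at 9.53, 10.8 and 11.7 FPKM in parental libraries and at 18.2, 21.3 and 22.1 in chemoresistant ones. It rose 1.91-fold (log2 fold change 0.88, SE 0.05, limma adjusted p = 1.27e-13), so that the channel's 2 subunits moved in opposite directions in the resistant line.

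TMEM205 (chr19:11342776-11346518) was at 1.36, 1.57 and 1.82 FPKM in parental and at 4.65, 5.01 and 5.38 in chemoresistant libraries. It rose by 1.24 (SE 0.10, limma adjusted p = 9.27e-11), a ratio of means of 3.22. The gene is short, so these levels rest on 41 to 212 reads per library, and 665 of its 1606 exonic bases also belong to CCDC159 on the opposite strand and 144 to RAB3D on its own. CCDC159 averaged 0.267 FPKM and RAB3D 1.70, and the strand setting of the counting is not given in the sources used here. ATP11B (chr3:182793500-182921635), a P4-ATPase or phospholipid flippase, was at 5.73, 6.68 and 7.9998 FPKM in parental libraries and at 8.38, 10.4 and 11.3 in chemoresistant ones, a rise of 0.51 (SE 0.09, limma adjusted p = 1.03e-05).

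**Figure D1:**
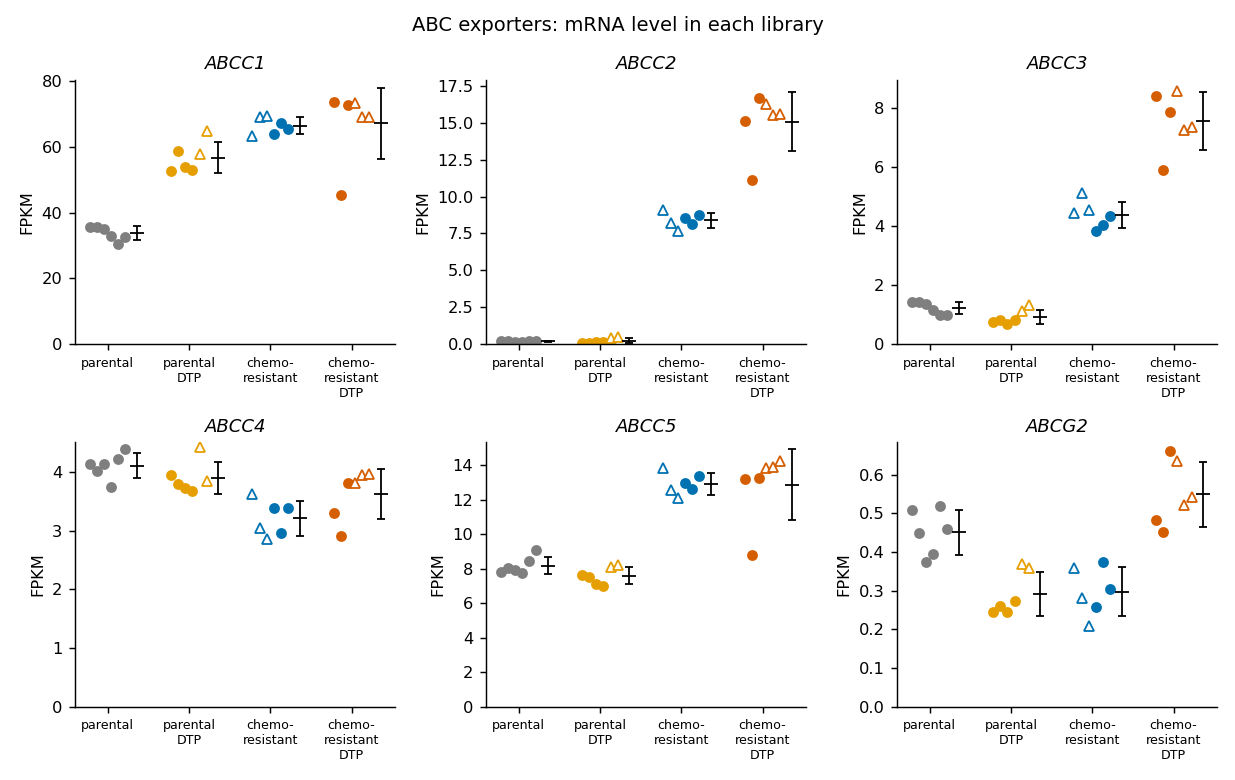
Level of each exporter mRNA in FPKM (y axes, from 0) in the 6 libraries of each group (x axes), with the mean ± SD in black. Open triangles are libraries with COL1A2 under 0.1 FPKM and filled circles the others. ABCC2 lies under 0.5 FPKM in all parental and parental DTP libraries and above 7.6 in all chemoresistant ones, and chemoresistant DTP library 2 lies low for ABCC1, ABCC2 and ABCC5.

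In the persister state of the parental line, 4 of the 9 tested genes were higher than in parental cells (ABCC1, LRRC8D, ATP11B and TMEM205), 1 was lower (ABCC3) and 4 were not called. The nuclear-retained RNA sums of these groups, given above, did not overlap, and their part in these changes was not tested. Over all tested genes 65.5% were called, 45.8% higher and 19.7% lower. The median of the 9 was 0.04 and that of all tested genes 0.14, which scaling by relative log expression takes to 0.00. With that scaling 3 of the genes rose and 4 fell. The shares above are without that scaling, and none over all tested genes is given with it. ABCC4 (-0.21, limma adjusted p = 0.000197), ABCC5 (-0.26, adjusted p = 0.000858) and LRRC8A (-0.34, adjusted p = 0.00993) joined the falls, and TMEM205 was no longer called (0.13, limma adjusted p = 0.322).

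LRRC8D and ABCC1 rose by similar amounts. For LRRC8D, parental DTP libraries ran at 17.4, 18.9 and 20.3 FPKM, all above the highest parental library, with a log2 fold change of 0.76 (SE 0.05, limma adjusted p = 6.45e-12). ABCC1 ran at 52.7, 55.7 and 64.7 FPKM, also clear of the parental range, and rose by 0.73 (SE 0.08, limma adjusted p = 5.96e-08). ATP11B ran at 8.32, 9.41 and 10.6 FPKM, just clear of the parental high of 7.9998, and rose by 0.42 (SE 0.09, limma adjusted p = 0.000175). No overlap of single libraries was also found for 45.8% of all tested genes in this comparison. These 3 persister groups lay near or within the range of the resistant line outside that state: chemoresistant cells were not called different from parental DTP cells for LRRC8D (0.11, limma adjusted p = 0.0606) or ATP11B (0.09, limma adjusted p = 0.359), and for ABCC1 they were higher by 0.23 (limma adjusted p = 0.0228). That LRRC8D difference passed under relative log expression scaling (0.12, limma adjusted p = 0.00908), upper-quartile scaling, voom, the replicate block (0.11, limma adjusted p = 0.0388) and GC correction (0.19, limma adjusted p = 6.29e-07), within the 16 libraries (0.17, limma adjusted p = 0.019), and without any of parental library 2, parental DTP library 5, chemoresistant libraries 2 and 3 or chemoresistant DTP library 2. That of ATP11B passed under GC correction (0.22, limma adjusted p = 1.24e-05). The difference of ABCC1 did not pass within either of the COL1A2 sets (0.26, limma adjusted p = 0.0754, and 0.13, adjusted p = 0.165), under GC correction (0.15, limma adjusted p = 0.0908) or without parental DTP library 1 (limma adjusted p = 0.0509). It ran from 0.205 to 0.263 with single libraries left out (lowest limma adjusted p = 0.000195). Over the remaining alternatives it ran from 0.13 to 0.28 (lowest limma adjusted p = 8.87e-06).

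ABCC2 was not called in parental persister cells as a group, but its libraries divided. Libraries 1 to 4 were at 0.0873 to 0.135 FPKM and libraries 5 and 6 at 0.437 and 0.470, above every parental library. The group mean was 0.222 ± 0.180 FPKM (SD, n = 6), and the log2 fold change 0.04 (limma adjusted p = 0.688). ABCC3 divided in the same way, with 0.683 to 0.830 FPKM in libraries 1 to 4 and 1.10 and 1.32 in libraries 5 and 6, and the latter lay inside the parental range. ABCC3 fell by 0.22 on the log2 scale (SE 0.09, limma adjusted p = 0.0273). That call was lost without any of parental libraries 1, 2 and 3 or parental DTP libraries 1 to 4 (limma adjusted p = 0.0504 to 0.0725). Leaving out single libraries gave log2 fold changes of ABCC3 from -0.28 to -0.18 (lowest limma adjusted p = 0.00526). Of the 15 other alternatives, only the use of no filter lost the call (limma adjusted p = 0.0614). Over those 15 the log2 fold change ran from -0.62 to -0.22 (lowest limma adjusted p = 0.000323).

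ABCC4 (3.67, 3.82 and 4.42 FPKM), ABCC5 (7.01, 7.57 and 8.23) and LRRC8A (51.1, 60.2 and 72.1) overlapped the parental range in this state. Their log2 fold changes were -0.06, -0.09 and -0.16 (limma adjusted p = 0.372, adjusted p = 0.294 and adjusted p = 0.176). TMEM205 ran at 1.64, 2.01 and 2.92 FPKM, the highest being library 6, and rose by 0.25 (SE 0.10, limma adjusted p = 0.0359). That call was lost without parental DTP libraries 5 and 6, which is also the value within the 16 libraries (0.19, limma adjusted p = 0.139 and adjusted p = 0.135). It was lost as well without any of parental libraries 1, 2 and 6 or parental DTP libraries 1, 3 and 6 (limma adjusted p = 0.0503 to 0.112), with no filter (limma adjusted p = 0.0818), and under upper-quartile scaling (limma adjusted p = 0.0995), GC correction (limma adjusted p = 0.111), voom (limma adjusted p = 0.44) and the replicate block (limma adjusted p = 0.0567).

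**Figure D2:**
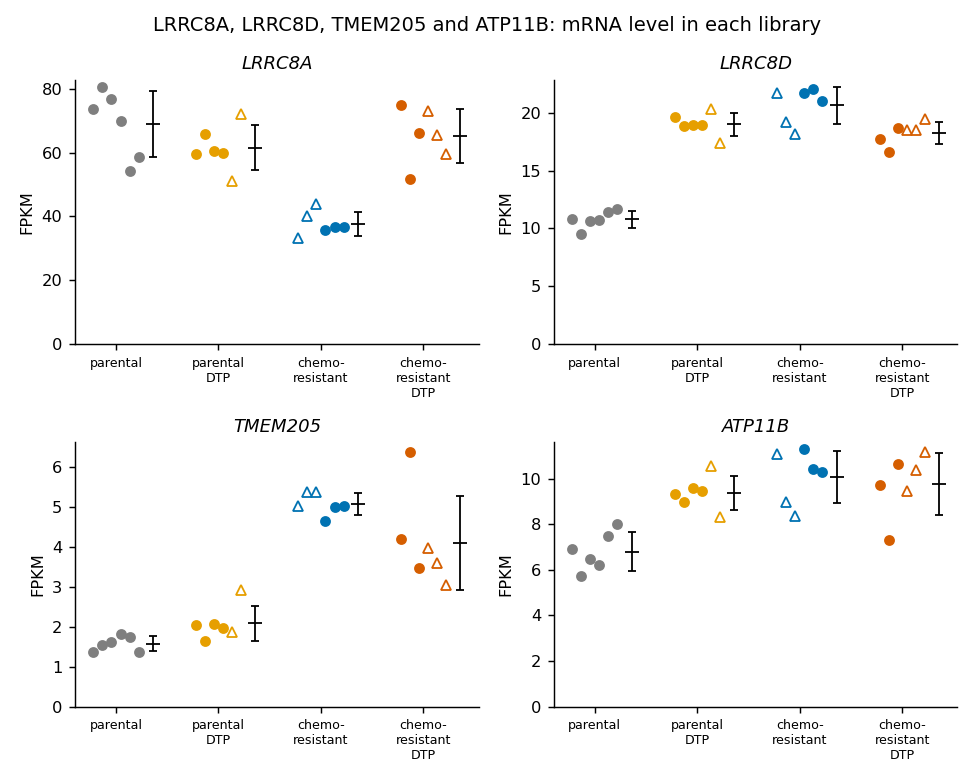
Level of LRRC8A, LRRC8D, TMEM205 and ATP11B mRNA in FPKM (y axes, from 0) in the 6 libraries of each group (x axes), with the mean ± SD in black and symbols as for the exporters (open triangles, COL1A2 under 0.1 FPKM). LRRC8A is low in the chemoresistant group alone, at 33.3 to 44.0 FPKM, while LRRC8D is low in the parental group alone, at 9.53 to 11.7 FPKM.

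In the persister state of the resistant line, 3 of the 9 tested genes were higher than in resistant cells (ABCC2, ABCC3 and LRRC8A), 2 were lower (LRRC8D and TMEM205) and 4 were not called. Over all tested genes 48.0% were called, 20.5% higher and 27.4% lower. The median was 0.00 for the 9 genes and -0.02 for all tested genes. The 3 rises had no overlap of single libraries, as 27.8% of all tested genes had none.

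ABCC2 ran at 11.2, 15.6 and 16.7 FPKM in chemoresistant DTP libraries, the lowest being library 2, and every one lay above the resistant high of 9.09. It rose 1.80-fold (log2 fold change 0.77, SE 0.08, limma adjusted p = 6e-08). ABCC3 ran at 5.89, 7.63 and 8.58 FPKM, clear of the resistant high of 5.11, and rose by 0.67 (SE 0.09, limma adjusted p = 7.02e-07). Both genes were thus highest in the resistant line's persister cells. For ABCC2 the means within the 16 libraries were 8.47 and 14.3 FPKM, and within the other 8 they were 8.32 and 15.8 FPKM, 3 libraries each.

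LRRC8A was high again in this state. It ran at 51.8, 66.0 and 74.9 FPKM, against 33.3 to 44.0 in resistant cells and 54.2 to 80.5 in parental ones, and rose by 0.77 (SE 0.10, limma adjusted p = 8.63e-07). Chemoresistant DTP cells were not called different from parental cells in LRRC8A (-0.08, SE 0.10, limma adjusted p = 0.503) or from parental DTP cells (0.08, SE 0.10, limma adjusted p = 0.503). LRRC8D went down slightly, to 16.6, 18.5 and 19.4 FPKM, overlapping the resistant range, with a log2 fold change of -0.17 (SE 0.05, limma adjusted p = 0.00997). Within the 8 libraries low in COL1A2 its means were 19.7 and 18.8 FPKM, and the change was not called there (-0.06, limma adjusted p = 0.608).

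ABCC1 was not called in the persister state of the resistant line. It was at 69.02 to 73.5 FPKM in 5 of the libraries and at 45.4 in library 2, which gave a log2 fold change of -0.00 (SE 0.08, limma adjusted p = 0.999). With that library and parental DTP libraries 5 and 6 left out, a small rise of 0.11 was called (limma adjusted p = 0.0318). With any 1 library left out, the change ran from -0.03 to 0.11 and was not called (lowest limma adjusted p = 0.0734). ABCC5 had the same low library (8.77 FPKM against 13.2 to 14.3) and a log2 fold change of -0.02 (limma adjusted p = 0.867). ABCC4, at 2.91, 3.81 and 3.96 FPKM, had a change of 0.13 (limma adjusted p = 0.0606) that passed without library 2 (0.18, limma adjusted p = 0.00478) and under relative log expression scaling (0.15, limma adjusted p = 0.00639). It passed as well under upper-quartile scaling, voom and GC correction, and without chemoresistant DTP library 1 or chemoresistant library 1.

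TMEM205 was at 3.04, 3.79 and 6.36 FPKM in chemoresistant DTP libraries, and library 2, low for ABCC1, was the high one here. Its fall of 0.28 on the log2 scale (SE 0.10, limma adjusted p = 0.0311) was not called in the 16 libraries with COL1A2 (-0.08, limma adjusted p = 0.654), where library 2 sits, nor under relative log expression scaling (-0.25, limma adjusted p = 0.0757). It was also lost without any of chemoresistant libraries 2 and 3 or chemoresistant DTP libraries 3, 5 and 6 (limma adjusted p = 0.0578 to 0.0926). GC correction (-0.18, limma adjusted p = 0.131), no filter (limma adjusted p = 0.0726) and a fit of these groups alone (limma adjusted p = 0.0617) lost it too. With single libraries left out the log2 fold change of TMEM205 ran from -0.39 to -0.21 (lowest limma adjusted p = 0.000251). Over the remaining alternatives, the COL1A2 sets included, it ran from -0.47 to -0.08 (lowest limma adjusted p = 2.35e-05). ATP11B was at 7.33, 10.0 and 11.2 FPKM, which overlapped the resistant range (-0.04, limma adjusted p = 0.705), and with a correction for GC content it was called lower (-0.13, limma adjusted p = 0.00399).

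**Figure D3:**
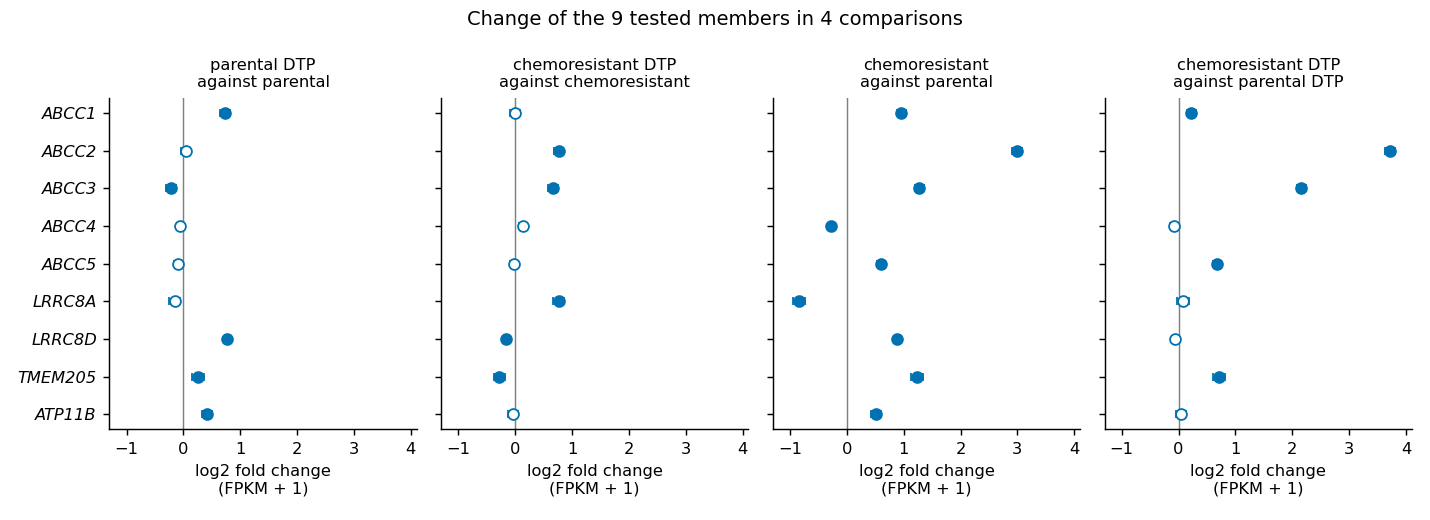
Log2 fold change on log2(FPKM + 1) (x axes) of the 9 tested genes (rows) in 4 comparisons (panels), with bars of 1 SE that are often narrower than the points. Filled points passed limma's adjusted p of 0.05 and open ones did not. ABCC2 changes by 2.99 and 3.72 between the lines and ABCC1 by 0.73 in the parental persister state against -0.00 in the resistant one.

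Between the persister states of the lines, 5 of the 9 tested genes were higher in the resistant one, none was lower and 4 were not called. Over all tested genes 61.9% were called, 29.5% higher and 32.3% lower. ABCC2 stood at a ratio of 67.7 (log2 fold change 3.72, SE 0.08, limma adjusted p = 1.97e-21) and ABCC3 at 8.26 (2.16, SE 0.09, limma adjusted p = 1.24e-16). ABCC5 was higher by 0.68 and TMEM205 by 0.71 (limma adjusted p = 4.86e-08 and adjusted p = 2.3e-06). All 4 of these had no overlap of single libraries, as 36.2% of all tested genes had none. ABCC1 was higher by 0.23 (SE 0.08, limma adjusted p = 0.0246), which was not called within either COL1A2 set (0.19, limma adjusted p = 0.184, and 0.20, adjusted p = 0.0628) or without any of chemoresistant DTP libraries 1, 3 and 4 or parental DTP libraries 1 and 4, nor with the libraries of these groups fitted alone (limma adjusted p = 0.0866). With single libraries left out that ABCC1 difference ran from 0.20 to 0.33 (lowest limma adjusted p = 3.52e-06). Over the remaining alternatives, the COL1A2 sets included, it ran from 0.19 to 0.39 (lowest limma adjusted p = 2.22e-07). ABCC4, LRRC8A, LRRC8D and ATP11B were within 0.09 of 0 on the log2 scale and were not called, with SEs of 0.05 to 0.10. With GC correction ATP11B was called higher (0.09, limma adjusted p = 0.0407).

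The change with the persister state was itself compared between the lines, as the resistant line's change minus the parental line's. It differed for 8 of the 9 tested genes, 4 upward and 4 downward. Over all tested genes 63.8% were called, 20.5% upward and 43.4% downward, with a median of -0.17. The resistant line's change was the higher for LRRC8A (0.92, SE 0.14, limma adjusted p = 4.09e-06), ABCC3 (0.89, SE 0.12, adjusted p = 7.87e-07) and ABCC2 (0.73, SE 0.12, adjusted p = 9.93e-06). It was the lower for LRRC8D (-0.93, SE 0.07, limma adjusted p = 9.91e-11), ABCC1 (-0.73, SE 0.12, adjusted p = 1.01e-05) and ATP11B (-0.46, SE 0.12, adjusted p = 0.00204). TMEM205 was also lower (-0.53, SE 0.15, limma adjusted p = 0.00301), but not within the 16 libraries (-0.27, limma adjusted p = 0.181). ABCC4 was higher by 0.19 (SE 0.08, limma adjusted p = 0.0424), a call that leaving out any of 16 single libraries ended (the highest limma adjusted p = 0.0764), and that was not made with no filter (limma adjusted p = 0.0768) or within the libraries with COL1A2 (0.12, limma adjusted p = 0.254). ABCC2's difference was not called with a pseudocount of 0.01 (0.84, limma adjusted p = 0.0931). ABCC5's was not called (0.08, SE 0.11, limma adjusted p = 0.557), but passed without chemoresistant DTP library 2 (0.17, limma adjusted p = 0.0144) and under relative log expression scaling (0.26, limma adjusted p = 0.0117).

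ABCG2 (chr4:88090264-88231322), the breast cancer resistance protein that exports topoisomerase poisons and urate, was scarce in every group, with 24 to 92 reads per library. It ran at 0.374, 0.454 and 0.520 FPKM in parental libraries, at 0.244, 0.267 and 0.369 in parental DTP, at 0.210, 0.293 and 0.375 in chemoresistant and at 0.451, 0.531 and 0.661 in chemoresistant DTP libraries. Parental DTP cells were lower than parental ones by 0.159 FPKM and chemoresistant DTP cells were higher than chemoresistant ones by 0.251 FPKM, neither with overlap of single libraries (two-sided exact permutation p = 0.00216 each, the smallest that 924 splits allow, and 0.00433 adjusted over 6 comparisons). Over all tested genes 45.8% and 27.8% had no overlap in these comparisons. Chemoresistant cells were lower than parental ones by 0.153 FPKM (exact permutation, adjusted p = 0.00649), and chemoresistant DTP cells were higher than parental DTP cells by 0.257 (exact permutation, adjusted p = 0.00433). Chemoresistant and parental DTP cells lay within 0.00611 FPKM of each other (exact permutation, adjusted p = 0.851), and chemoresistant DTP cells were 0.0978 FPKM above parental ones (exact permutation, adjusted p = 0.0519), which passed without any of 4 single libraries. Whether the change with the persister state differs between the lines was not tested for ABCG2.

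Orders of the group levels followed from these tests and from the remaining pairs of groups. In chemoresistant against parental DTP cells 5 of the 9 were higher, 2 lower and 6 without overlap of single libraries, against 66.5% called over all tested genes, 33.0% higher, 33.4% lower and 44.1% without overlap. In chemoresistant DTP against parental cells 7 were higher, 1 lower and 5 without overlap, against 73.8% called, 46.2% higher, 27.6% lower and 51.7% without overlap. ABCC2 and ABCC3 ran from the parental line, in either state, through resistant cells to resistant persister cells, and for ABCC2 the pair of parental groups did not differ beyond their spread. ABCC1 was lowest in parental cells. Both resistant groups, not separated from each other, were called above parental DTP cells, but the libraries overlapped and neither call held within the COL1A2 sets. LRRC8D and ATP11B were lowest in parental cells, and their other groups lay close together, with means of 18.2 to 20.6 FPKM and of 9.37 to 10.1 FPKM. LRRC8A was lowest in resistant cells, and its other 3 groups, with means of 61.5 to 68.9 FPKM, were not separated. TMEM205 and ABCC5 were higher in both resistant groups than in both parental ones. ABCC4 was lower in resistant cells than in either parental group, and was not separated from resistant DTP cells.

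Per length, the make-up of the MRP mRNA changed with these levels. The 5 MRP genes summed to 47.4 ± 2.08 FPKM in parental, 69.4 ± 5.44 in parental DTP, 95.3 ± 1.89 in chemoresistant and 106 ± 15.9 in chemoresistant DTP libraries (SD, n = 6 each). ABCC1 made up 71.1% of that sum in parental cells, 81.8% in parental DTP cells, 69.6% in resistant cells and 63.1% in resistant DTP cells. ABCC2 made up 0.379%, 0.309%, 8.82% and 14.2% in the same order. Most MRP mRNA was thus ABCC1 in every group, and ABCC2's share was under 1% in both parental groups. Across the 5 LRRC8 subunits, LRRC8A made up 82.2%, 72.3%, 60.4% and 73.9% and LRRC8D 13.1%, 22.5%, 33.1% and 20.9%.

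**Figure D4:**
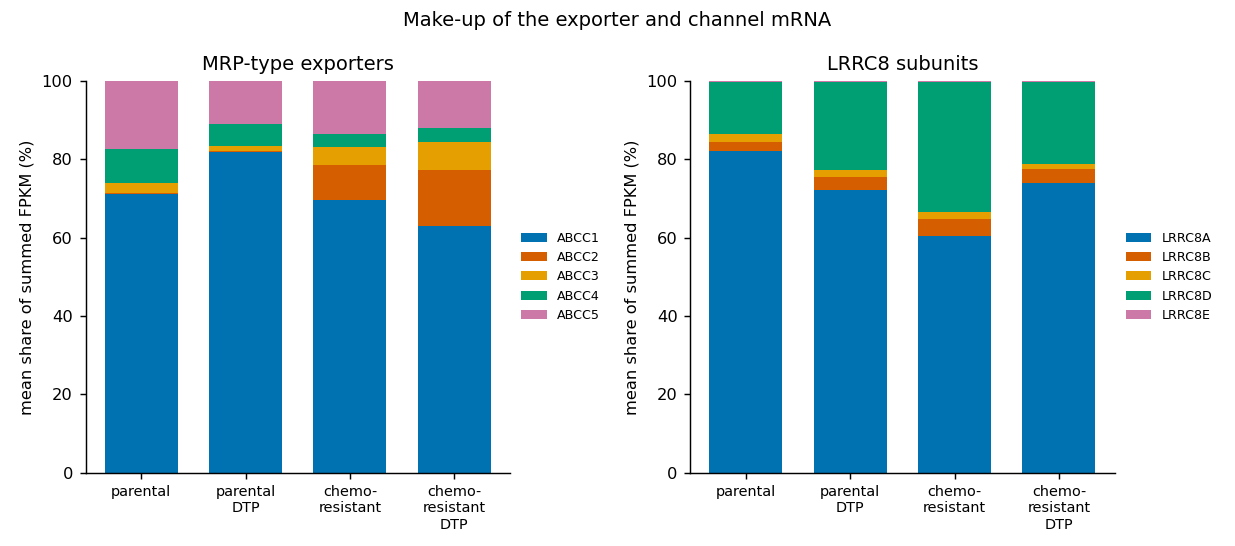
Mean share (y axes, %) of each gene in the summed FPKM of the 5 MRP genes (left) and of the 5 LRRC8 subunits (right) in each group of 6 libraries (x axes). ABCC2's share goes from under 0.4% in parental cells to 14.2% in resistant persister cells, and LRRC8D's is highest, at 33.1%, in resistant cells.

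The ratio of LRRC8A to LRRC8D mRNA summarises the channel genes in single libraries. It was 6.47 ± 1.39 in parental, 3.26 ± 0.543 in parental DTP, 1.85 ± 0.337 in chemoresistant and 3.58 ± 0.450 in chemoresistant DTP libraries (SD, n = 6 each). Single libraries ran from 4.76 to 8.44, from 2.51 to 4.15, from 1.54 to 2.42 and from 3.07 to 4.22. The parental and the chemoresistant ranges each stood clear of all other groups, and the ranges of the persister groups overlapped. Parental libraries 5 and 6 had the lowest ratios of their group, as they had the lowest LRRC8A. Deviations of genes from their group mean followed GC content, with Spearman correlations from -0.640 (chemoresistant library 1) to 0.655 (chemoresistant library 2). Parental libraries 5 and 6 were at -0.540 and -0.559. LRRC8A had a GC content of 57.6% and LRRC8D of 42.8%, and the part of this trend in the ratio was not tested. No test was made on the ratio, which follows from the levels above.

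**Figure D5:**
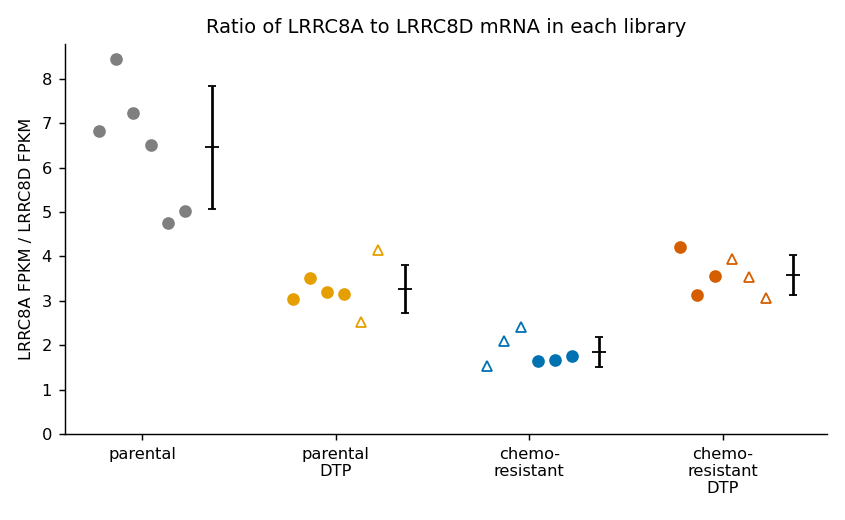
Ratio of LRRC8A to LRRC8D FPKM (y axis, from 0) in the 6 libraries of each group (x axis), with the mean ± SD in black. Open triangles are libraries with COL1A2 under 0.1 FPKM. The ratio is highest in parental cells (4.76 to 8.44) and lowest in chemoresistant cells (1.54 to 2.42), with both persister groups between.

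The genes whose log2 levels over the 24 libraries were most like each member's, of 12326 compared, are given as a description, since all share the same libraries and group differences. For ABCC2 they were DUSP4, CEACAM5 and EDAR (Pearson's r 0.996, 0.996 and 0.995), all nearly silent in parental cells and highest in resistant DTP cells. For ABCC3 they were PGD, an enzyme of the pentose phosphate pathway, SPRR2D, a cornified envelope gene, and ABCC2 itself (r 0.985, 0.985 and 0.983). For ABCC1 they were RPS6KA2, NPC1 and DNASE1 (r 0.982, 0.982 and 0.979), and for LRRC8D ATF6, R3HDM2 and KLHL24 (r 0.992, 0.991 and 0.989). For LRRC8A they were KRT80, ADAMTS1 and DHX34 (r 0.951, 0.948 and 0.932), and for ABCC4 PTPN11, SRPK1 and KPNA1 (r 0.955, 0.951 and 0.941). TBC1D2B, ATP2A2 and DROSHA were most like ABCC5 (r 0.976, 0.969 and 0.968), TMEM54, CIB1 and BEX3 most like TMEM205 (r 0.988, 0.982 and 0.979), and XIAP, SCAMP1 and TPR most like ATP11B (r 0.982, 0.982 and 0.976). The choice depends on the measure. By Spearman correlation DUSP4, CEACAM5 and EDAR held ranks 81, 52 and 173 for ABCC2, while TBC1D2B for ABCC5 and XIAP for ATP11B held rank 1.

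The rest of these pathways was read from further lists, each given by its counts of rises and falls, beside the shares over all tested genes above. Those shares are without relative log expression scaling, so the counts under that scaling have no share beside them. Of 10 other ABC drug exporters, 3 were tested. In resistant against parental cells all 3 rose (median 0.74), and in resistant DTP against resistant cells all 3 fell (median -0.56). In parental DTP against parental cells 2 rose and none fell (median 0.54), and between the persister states none was higher and 2 were lower (median -0.14). ABCC10, another MRP, averaged 4.60 ± 0.257 FPKM in parental and 8.38 ± 0.575 in resistant cells (log2 fold change 0.74, limma adjusted p = 2.87e-09). ABCA3, a lipid transporter, averaged 0.255 ± 0.0560 and 1.52 ± 0.131 FPKM (1.01, limma adjusted p = 2.87e-15). ABCA2 averaged 6.87 ± 0.710 FPKM in resistant and 4.34 ± 0.619 in resistant DTP cells (-0.56, limma adjusted p = 3.63e-06).

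Of the 32 remaining ABC transporters, 18 were tested. In resistant against parental cells 9 rose and 5 fell (median 0.12), or 8 and 9 under relative log expression scaling. In parental DTP against parental cells 9 rose and 6 fell (median 0.13), or 8 and 8 with that scaling. In resistant DTP against resistant cells 5 rose and 8 fell (median -0.07), and between the persister states 7 were higher and 5 lower (median 0.03). TAP1, which carries peptides for antigen presentation, went from 6.11 ± 0.199 FPKM in parental to 33.8 ± 1.71 in resistant cells (2.29, limma adjusted p = 1.88e-20). ABCG1, a sterol exporter, went from 0.994 ± 0.1004 FPKM in parental to 4.94 ± 0.518 in parental DTP cells (1.57, limma adjusted p = 1.35e-17), and ABCA13 from 4.66 ± 1.01 to 21.1 ± 1.05 FPKM (1.98, limma adjusted p = 4.52e-11). ABCA4 was at 0.781 ± 0.0801 FPKM in parental DTP and 2.84 ± 0.2197 in resistant DTP cells (1.11, limma adjusted p = 1.35e-16).

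Of the other 3 LRRC8 subunits 2 were tested. LRRC8B rose in resistant against parental cells (1.81 ± 0.198 to 2.71 ± 0.453 FPKM, log2 fold change 0.40, limma adjusted p = 0.000137). LRRC8C fell there (1.78 ± 0.270 to 1.15 ± 0.268 FPKM, -0.37, limma adjusted p = 0.000239). In parental DTP against parental cells 1 of them rose and none fell, in resistant DTP against resistant cells neither was called, and between the persister states 1 was higher and 1 lower.

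Copper and organic cation carriers that move platinum had 4 of 9 genes tested. In resistant against parental cells all 4 rose (median 0.56), or 3 under relative log expression scaling, and in parental DTP against parental cells 3 rose and none fell (median 0.22), or 2 with that scaling. In resistant DTP against resistant cells 2 fell and none rose (median -0.13), and between the persister states 3 were higher and none lower (median 0.24). SLC47A2, the exporter MATE2, went from 0.913 ± 0.121 FPKM in parental to 9.47 ± 0.204 in resistant cells (2.45, limma adjusted p = 5.7e-22). SLC31A1, the copper importer CTR1 through which cisplatin can enter, went from 11.8 ± 0.588 to 17.9 ± 0.938 FPKM (0.56, limma adjusted p = 1.19e-08), and ATP7B, a copper exporter, from 0.561 ± 0.0287 to 1.31 ± 0.0453 FPKM (0.56, limma adjusted p = 1.49e-10). SLC47A1 (MATE1) went from 3.70 ± 0.219 FPKM in parental to 4.23 ± 0.441 in parental DTP cells (0.15, limma adjusted p = 0.0117).

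Among the other P4-ATPases and their CDC50 subunits, 8 of 15 were tested. In resistant against parental cells 7 rose and none fell (median 0.47), or 5 and none under relative log expression scaling, while in resistant DTP against resistant cells none rose and 6 fell (median -0.26). In parental DTP against parental cells 4 rose and none fell (median 0.19), or 4 and 1 with that scaling, and between the persister states 2 were higher and none lower (median 0.02). From parental to resistant cells ATP9A went from 5.39 ± 0.423 to 13.0 ± 0.354 FPKM (1.13, limma adjusted p = 3.28e-10) and ATP8B1 from 1.88 ± 0.236 to 4.25 ± 0.358 FPKM (0.87, limma adjusted p = 1.52e-11). ATP8B2 (0.70, limma adjusted p = 1.72e-10) and the CDC50 subunit gene TMEM30B (0.55, limma adjusted p = 7.73e-12) also rose there.

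Drug uptake carriers, 9 of 17 tested, were divided in each comparison. In resistant against parental cells 4 rose and 4 fell (median -0.05), or 3 and 5 under relative log expression scaling, and in parental DTP against parental cells 4 rose and 3 fell (median -0.01), or 4 and 5. In resistant DTP against resistant cells 2 rose and 3 fell (median -0.03), and between the persister states 1 was higher and 3 lower (median -0.03). SLC29A1, the nucleoside transporter ENT1, fell from 39.5 ± 3.27 FPKM in parental to 11.3 ± 0.705 in resistant cells (-1.72, limma adjusted p = 1.65e-19), and SLCO4A1 from 10.6 ± 0.977 to 4.14 ± 0.548 FPKM (-1.18, limma adjusted p = 7.4e-13). The organic anion carriers SLCO1A2 (0.322 ± 0.0619 to 1.96 ± 0.288 FPKM, limma adjusted p = 1.73e-14) and SLCO4C1 (0.0903 ± 0.0214 to 1.33 ± 0.332 FPKM, limma adjusted p = 1.69e-12) rose there.

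Of the factors known to control exporter genes, 9 of 13 were tested. In resistant against parental cells 7 rose and 1 fell (median 0.67), or 6 and 2 under relative log expression scaling, and in parental DTP against parental cells 5 rose and 3 fell (median 0.33), or 4 and 4. In resistant DTP against resistant cells 2 rose and 4 fell (median 0.07), and between the persister states 4 were higher and 2 lower (median 0.00). NFE2L2 (NRF2), which drives MRP genes, went from 15.8 ± 1.78 FPKM in parental to 37.3 ± 4.198 in resistant cells (1.19, limma adjusted p = 8.84e-13), and EPAS1, a hypoxia factor, from 1.12 ± 0.0957 to 3.48 ± 0.268 FPKM (1.08, limma adjusted p = 9.19e-13). KEAP1, which targets NRF2 for degradation, was at 27.8 ± 4.00 FPKM in parental DTP and 58.5 ± 4.70 in resistant DTP cells (1.05, limma adjusted p = 3.18e-10), and HIF1A at 161 ± 26.2 and 68.2 ± 9.26 FPKM (-1.22, limma adjusted p = 9.5e-10).

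The list of the exporters' partners held 8 genes, 1 of them under 2 symbols, and 7 were tested. In resistant against parental cells 2 rose and 2 fell (median -0.03), or 2 and 3 under relative log expression scaling. In parental DTP against parental cells 1 rose and 3 fell (median -0.07), or 1 and 4, and in resistant DTP against resistant cells 1 rose and 2 fell (median 0.05), or 3 and 1. Between the persister states 2 were higher and 1 lower (median 0.09). MVP, the major vault protein, went from 2.26 ± 0.239 FPKM in parental to 24.3 ± 1.83 in resistant cells (2.96, limma adjusted p = 5.43e-20). EZR, ezrin, which ties membrane proteins to actin, fell from 194 ± 5.58 to 85.6 ± 1.73 FPKM (-1.17, limma adjusted p = 2.88e-21), and its relative MSN, moesin, from 95.3 ± 3.19 to 56.4 ± 1.79 FPKM (-0.75, limma adjusted p = 7.37e-11). SLC9A3R1 (NHERF1), a scaffold bound by ezrin, was at 19.0 ± 0.850 FPKM in parental DTP and 67.7 ± 1.89 in chemoresistant DTP cells (1.78, limma adjusted p = 6.77e-22).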

How the data were processed

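RNA was sequenced in 24 libraries, 6 per group, and groups and replicate numbers were read from the sample titles. Per the labels' protocols, TRIzol was used for extraction and library preparation followed Illumina's standard. The submitters' processing notes name GRCh38. The aligner is not given in the sources used here, nor are the counting tool and strand setting. Per the file headers, the authors deposited FPKM in 1 table of 61251 genes.

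The deposited FPKM proved to be whole multiples of 1 read's value, so reads could be recovered for all 41101 genes above 0 (tolerance 0.02 reads or a relative 5e-08). They served for depth, 14947379 to 37989445 reads, and an added voom test. The floor for a gene at 0 is 3 reads, equal to 0.0790 to 0.201 CPM, and covers counting error only.

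The 4 group means were fitted over all 24 libraries with limma 3.58.1 (R 4.3.3, mean-variance trend) on log2(FPKM + 1). A gene was tested if some group averaged 1 FPKM or more, which left 13729. P-values are two-sided, adjusted by Benjamini-Hochberg over these genes within each comparison, with a threshold of 0.05. ABCG2, under that filter, was tested with exact permutation tests of mean FPKM. Names and coordinates came from GENCODE 29 (58337 of 61251 IDs). The fit was tested on simulated data.

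The genes, lists and tests were chosen with earlier results of these data known. From each other list up to 4 genes are named, those with the largest called change that averaged 1 FPKM or more in the higher group, and most-like genes are the 3 with the highest Pearson correlation. Replicate numbers are shared across groups but did not pair libraries. Alternatives covered pseudocounts, filters, scalings, libraries left out, the replicate block and, chosen after seeing the data, voom, GC correction and the COL1A2 sets.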

Additional observations from a re-analysis of the deposited data

Results flagged for a closer look

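In 40 groups of 6 libraries (10 genes by 4 groups), 6 held a library far from the rest by Dixon's test, which chance alone does in about 1 of 20. Chemoresistant DTP library 2 accounted for 4 of them: ABCC1 at 45.4 FPKM, ABCC2 at 11.2, ABCC5 at 8.77 and TMEM205 at 6.36, the last high and the others low. The others were ABCC4 in parental DTP library 5 (4.42 FPKM) and TMEM205 in parental DTP library 6 (2.92 FPKM), both high.

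The change with the persister state differed between the lines, by limma's test of that difference (resistant minus parental line, log2 scale), for ABCC1 (-0.73), ABCC2 (0.73), ABCC3 (0.89), ABCC4 (0.19), LRRC8A (0.92), LRRC8D (-0.93), TMEM205 (-0.53) and ATP11B (-0.46). Over all tested genes 63.8% were called in this test. The calls of ABCC2, ABCC4 and TMEM205 were lost under some alternatives, as given above.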

How the results depend on the processing

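In chemoresistant against parental cells all 9 calls kept their direction and their side of the threshold under every alternative that tested the gene, leaving out each of 24 libraries included. The 7 rises stayed 7, and the 2 falls became 1 with a mean of at least 5 FPKM required, which drops ABCC4 from the test, as it did in chemoresistant against parental DTP cells (1). In parental DTP against parental cells the 1 fall became 4 under relative log expression scaling, GC correction, GC correction with the replicate block and voom, 2 under upper-quartile scaling and without parental DTP libraries 5 and 6 and chemoresistant DTP library 2, and 0 with no filter, with 0 to 2 when single libraries were left out. In chemoresistant DTP against chemoresistant cells the 2 falls became 1 with no filter, with the libraries of the groups compared alone, within either COL1A2 set, under relative log expression scaling and with the replicate block, and 1 or 2 with single libraries left out. Under GC correction ATP11B took the place of TMEM205 among the falls. The 3 rises became 4, with ABCC4, under relative log expression and upper-quartile scaling, voom and GC correction with or without the replicate block. With single libraries left out they were 3 or 4. They became 5 without those 3 libraries, where ABCC1, at -0.00 in all libraries, was at 0.11. In chemoresistant DTP against parental cells the 1 fall, ABCC4, became 0 with a mean of at least 5 FPKM and without those 3 libraries, and 0 or 1 with single libraries left out. ABCG2 in that comparison, at 0.0978 FPKM, was at 0.117 without those 3 libraries (exact permutation, adjusted p = 0.0234) and at 0.0754 to 0.117 with single libraries left out. It was called without any of parental libraries 1 and 5 or chemoresistant DTP libraries 1 and 2 (exact permutation, adjusted p = 0.0234 to 0.0468). The cause was not tested for these changes. No shares over all tested genes are given for the alternatives, so these counts have none beside them.

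Replicate numbers are shared by the groups, but deviations of same-numbered libraries correlated at -0.385 to 0.403 over 36 pairs, so the numbers were not taken to pair libraries. With the replicate block TMEM205's rise (adjusted p = 0.0567) and fall (adjusted p = 0.0509) with the persister state were not called, while 7 genes rose and 2 fell in chemoresistant against parental cells as without it. Both count models planned were not run, since the unit is FPKM. Depth limits ABCG2, ABCC2 in parental cells and TMEM205, at under 220 reads per library.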
